A study of Caenorhabditis elegans with 2 samples.

Results

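Protein-coding genes with names in the hsp, dnj and cct families, 59 of 19973 in the annotation, encode most of the named molecular chaperones and heat shock proteins of Caenorhabditis elegans. The rule that picks the genes uses their names and no measured value, but it was set with earlier results of these data known. The 59 genes carry 57 distinct names, because hsp-16.1 and hsp-16.48 each stand for 2 gene copies. By name they comprised 6 Hsp70 and Hsp110 genes, 2 Hsp90 genes, the gene of the mitochondrial chaperonin, 8 genes of the CCT chaperonin, 29 genes of J proteins and 13 genes of small heat shock proteins. Chaperone genes with other names, such as enpl-1 (an Hsp90) and sip-1 (a small heat shock protein), are not in these counts.

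The binding data came from 2 biological replicates of 1 group, with no second condition. Whole L1 larvae of both sexes, of strain OP353, were used. The strain carries the mutation unc-119(tm4063) and the insertion wgIs353, which supplies NHR-77 fused to eGFP, and DNA bound by the tagged receptor was enriched by immunoprecipitation and sequenced (TF ChIP-seq). The sources used here do not name the promoter that drives the tagged protein or how many larvae were pooled. No strain without the tag and no control library was analysed here.

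NHR-77 belongs to the nuclear hormone receptors, DNA-binding transcription factors whose family is much expanded in this worm. Hsp70 and Hsp90 proteins fold and refold clients at the cost of ATP, J proteins hand clients to Hsp70, and the CCT ring folds actin, tubulin and other cytosolic proteins. Small heat shock proteins hold unfolding proteins in solution. Several chaperones are made at all times, whereas the hsp-16 genes and hsp-70 are known for their strong induction by heat through the transcription factor HSF-1, which binds heat shock elements.

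A gene was called bound when a peak summit lay between 1000 bp upstream and 250 bp downstream of its annotated 5' end, its start here. Negative distances lie upstream. The reproducible set is the set of 2285 peaks that the authors selected by the irreproducible discovery rate, a measure of replicate agreement. The other lists are relaxed and include background. They held 13500 peaks for the pooled replicates, 21272 for replicate 1 and 24201 for replicate 2. Signal is the peak caller's value for a peak, as the authors deposited it. It serves to order the peaks of a single list, so a signal is given with its rank. Signals in the reproducible set equalled those in the pooled list for every bound chaperone gene. Read depth is unknown, since the lists hold no counts.

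The sequences under 7 strong chaperone peaks, the 3 highest-ranked Hsp70 and Hsp110 sites, hsp-90, hsp-60 and the highest-ranked CCT and J protein sites, are shown because the results turn on such sites and on the heat shock genes that lack them. Each runs 50 bases to either side of the reproducible summit, on the strand of the gene, with the 21 bases centred on the summit in capitals (ce11, sequence from RefSeq, WBcel235). None of these windows touched an annotated UTR. They cover V:14685733-14685833 (+, hsp-90), IV:17278502-17278602 (+, hsp-1), X:6092139-6092239 (-, hsp-3), III:8447129-8447229 (-, hsp-110), III:1619086-1619186 (+, hsp-60), IV:1094271-1094371 (-, cct-8) and X:4711997-4712097 (-, dnj-14). Their GC content ranged from 34.7% for hsp-110 to 65.3% for hsp-3.
hsp-90: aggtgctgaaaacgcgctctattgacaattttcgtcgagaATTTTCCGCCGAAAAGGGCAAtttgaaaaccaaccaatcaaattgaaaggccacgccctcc
hsp-1: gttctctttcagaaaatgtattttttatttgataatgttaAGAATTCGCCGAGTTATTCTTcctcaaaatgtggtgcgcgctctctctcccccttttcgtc
hsp-3: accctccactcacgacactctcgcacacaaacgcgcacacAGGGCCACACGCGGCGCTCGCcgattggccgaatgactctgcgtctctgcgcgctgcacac
hsp-110: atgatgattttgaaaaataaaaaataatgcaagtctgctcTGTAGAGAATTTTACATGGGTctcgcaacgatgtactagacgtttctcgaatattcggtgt
hsp-60: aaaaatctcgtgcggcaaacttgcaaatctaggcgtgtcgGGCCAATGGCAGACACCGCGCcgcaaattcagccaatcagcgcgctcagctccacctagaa
cct-8: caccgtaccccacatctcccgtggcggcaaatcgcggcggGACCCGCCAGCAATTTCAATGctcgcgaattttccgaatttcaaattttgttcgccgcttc
dnj-14: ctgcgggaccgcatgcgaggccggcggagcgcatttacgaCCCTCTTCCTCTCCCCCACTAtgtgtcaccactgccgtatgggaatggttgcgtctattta

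The stretch between the starts of the heat-inducible pair hsp-16.2 and hsp-16.41, V:1804958-1805177 (+ strand, 220 bases), is shown as the counterpart without a peak. Capitals mark the heat shock element that lies wholly inside it.
hsp-16.2 and hsp-16.41: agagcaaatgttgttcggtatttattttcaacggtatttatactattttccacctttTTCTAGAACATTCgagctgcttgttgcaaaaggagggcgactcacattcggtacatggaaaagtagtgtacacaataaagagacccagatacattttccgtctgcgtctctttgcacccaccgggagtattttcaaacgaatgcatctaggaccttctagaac

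NHR-77 peaks lay at most Hsp70 genes known as constitutive, at hsp-60, at part of the CCT and J protein genes, and at no promoter of the hsp-16, hsp-70 and hsp-4 genes. A reproducible summit lay in the promoter of 18 of the 59 genes (30.5%, exact 95% interval 19.2 to 43.9%), against 8.60% of all protein-coding genes and 11.2% of those with a gene-family name. Many of these peaks lie between 2 genes, and when each summit was given only to the nearest protein-coding start, 8 of 59 chaperone genes were bound (6.21% of all genes), with 2 of 6 Hsp70 and Hsp110 genes, 0 of 8 CCT genes and 0 of 1 for hsp-60. With every start in reach counted, the share was 4 of 6 for Hsp70 and Hsp110 genes (interval 22.3 to 95.7%), 1 of 1 for hsp-60, 4 of 8 for CCT genes (interval 15.7 to 84.3%), 9 of 29 for J proteins (31.0%, 15.3 to 50.8%), 0 of 2 for Hsp90 and 0 of 13 for small heat shock proteins (upper bound 24.7%). The 6 constitutive Hsp70 and Hsp90 genes were bound in 4 cases, and the 8 inducible genes (hsp-70, hsp-4 and the 6 hsp-16 genes) in none. This split is one of naming: hsp-6, counted as constitutive, and hsp-60, counted in neither group, are known to be induced by mitochondrial stress, and both were bound. The interval for the 8 inducible genes reaches 36.9% and so holds the 8.60% of all genes. The hsp-16 genes lie in divergent pairs, and 4 of these 6 genes lie in repeat copies, described below. No test was made of the differences between groups: the genes are no replicates, and several share families or promoters. The intervals cover counting error only.

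**Figure D1:**
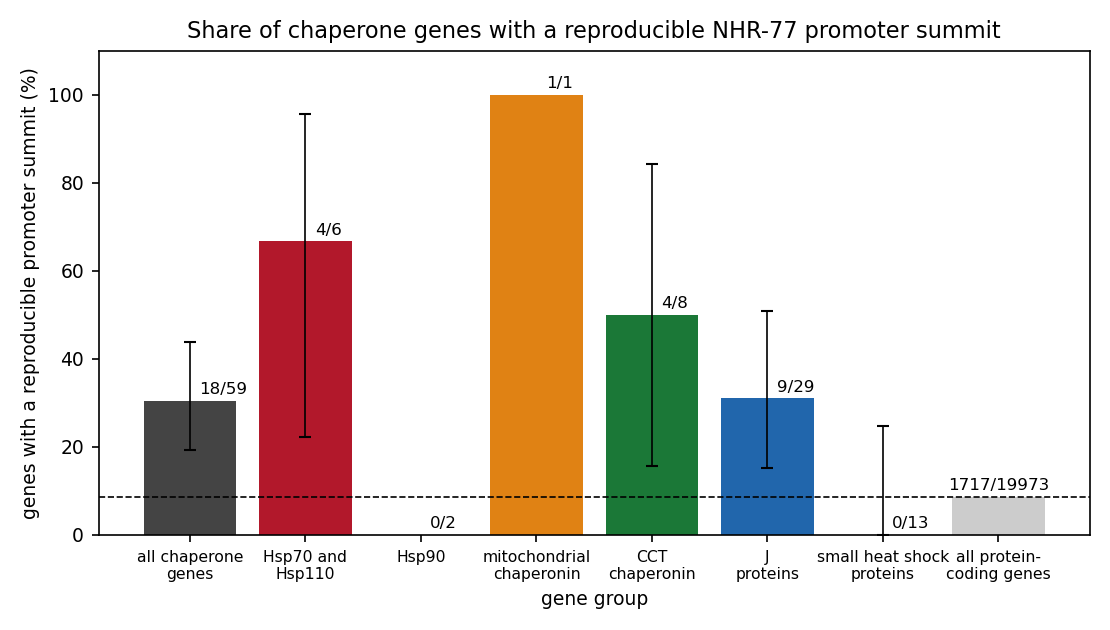
Share of genes with a reproducible NHR-77 summit in the promoter, in percent, for all chaperone genes, for each class and for all protein-coding genes (dashed line, 8.60%). Numbers above the bars are bound genes over all genes, and error bars are exact 95% intervals, drawn for groups of at least 6 genes. Hsp70 and Hsp110 genes stood at 4 of 6 and small heat shock proteins at 0 of 13.

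Each replicate alone gave similar counts. Among the 2285 strongest peaks of replicate 1, 19 chaperone genes had a promoter summit (8.57% of all genes did), and among those of replicate 2, 18 did (8.19%). In all, 17 chaperone genes were covered by the strongest peaks of both replicates, against 6.55% of all genes. Each class except the J proteins had the same count in both replicates. Because the reproducible set was selected for agreement of these replicates, part of this likeness follows from the selection.

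The bound chaperone genes had strong peaks. Their strongest promoter summits had a median rank of 278 of 2285 and a median signal of 187, while all 1717 bound genes had a median rank of 1030 and a median signal of 98.3. The 1143 strongest reproducible peaks covered 17 of the 18 genes (94.4%), against 54.5% of all bound genes and 4.69% of all protein-coding genes. The first 228 ranks held 8 of them (44.4%), against 13.0% of all bound genes. This is a description without a test.

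**Figure D2:**
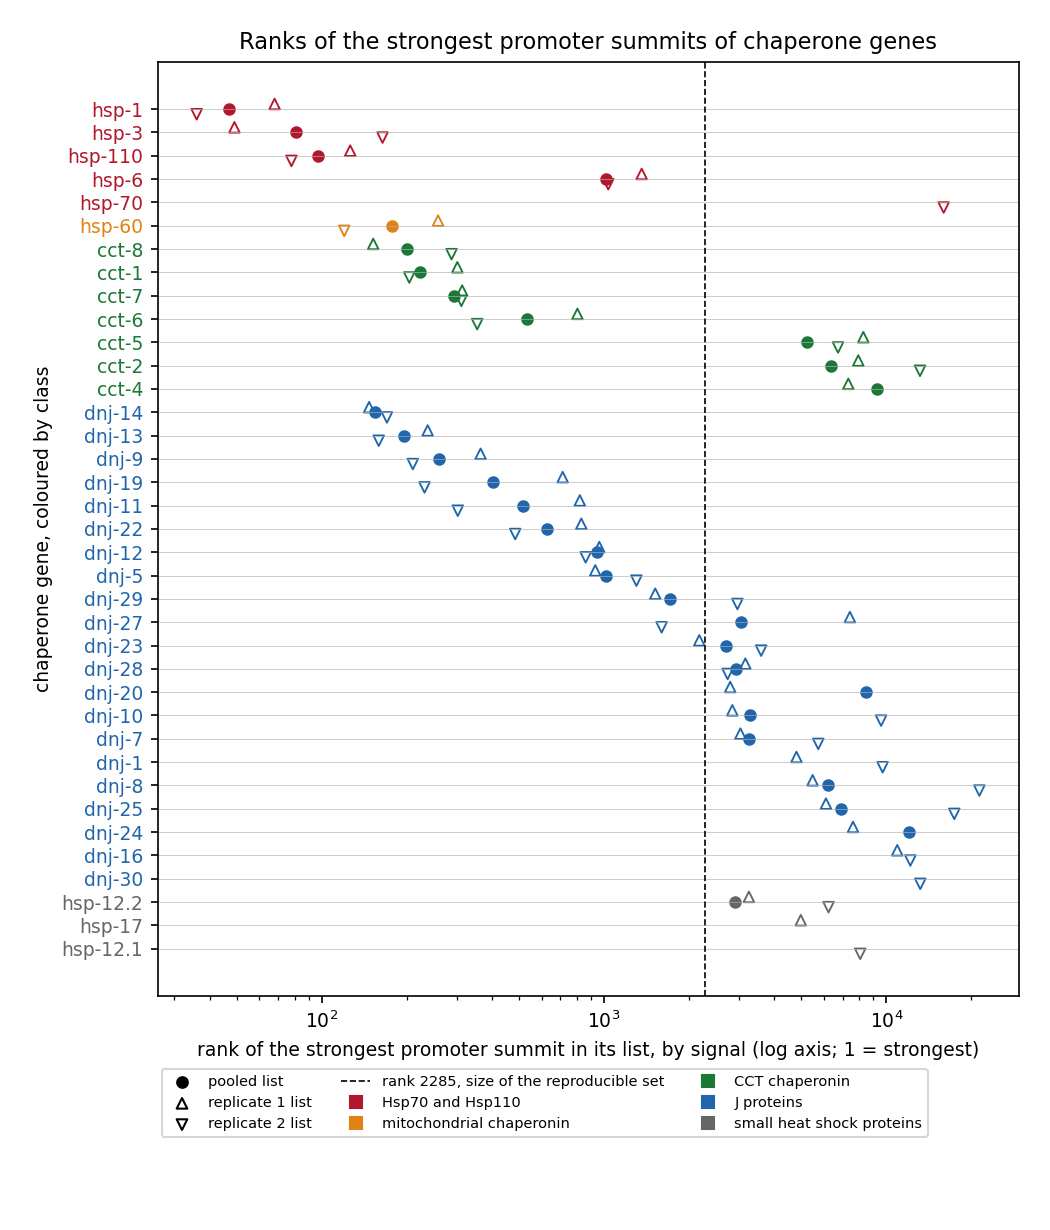
Rank of the strongest promoter summit of each chaperone gene (log axis, 1 is the strongest peak of the list) in the pooled list (filled circles) and in the lists of replicate 1 and replicate 2 (open triangles), for the 37 genes with a promoter summit in any of them. The dashed line marks rank 2285, the size of the reproducible set. The Hsp70 genes hsp-1, hsp-3 and hsp-110 stand near the top, and genes of small heat shock proteins appear only to the right of the line.

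Among the Hsp70 genes, hsp-1 had the strongest promoter peak in the reproducible set. It encodes the constitutive cytosolic Hsp70 (Hsc70). Its summit (IV, peak 17278448 to 17278637) lay at -407 bp and ranked 47 in the pooled list with a signal of 356. The signal was 180 (rank 68) in replicate 1 and 178 (rank 36) in replicate 2. The site was thus among the strongest in both replicates, and no other protein-coding promoter window held it. The nearest start of any kind of gene belonged to the non-coding RNA gene F26D10.23.

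The 2 Hsp70 genes of the endoplasmic reticulum differed from each other. HSP-3 and HSP-4 are both worm homologues of BiP, and hsp-4 is known as the copy induced by the unfolded protein response. The summit of hsp-3 (X, peak 6091999 to 6092378) lay at -65 bp, with a signal of 302 (rank 81), 197 (rank 49) in replicate 1 and 103 (rank 164) in replicate 2. The gene hsp-4 had no promoter summit in any of the 4 lists. The nearest reproducible summit to its start lay at 8427 bp, and the nearest pooled one at -1220 bp with a signal of 23.6.

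HSP-110, of the Hsp110 branch that helps Hsp70 exchange nucleotides, had a summit at -270 bp (III, peak 8447068 to 8447231). The signal was 285 (rank 97), 143 (rank 126) in replicate 1 and 134 (rank 78) in replicate 2. This peak also lay at -174 bp from rpn-3, a proteasome subunit gene, and was closer to that start. The mitochondrial Hsp70 gene hsp-6 had a weaker peak at -423 bp (V, peak 4826993 to 4827372), with a signal of 99.3 (rank 1016), 47.6 (rank 1358) in replicate 1 and 44.4 (rank 1034) in replicate 2. It was shared with C37H5.5, at -177 bp. The heat-inducible hsp-70 had only a replicate 2 summit at -693 bp with rank 15951, a level at which the list includes background.

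The mitochondrial chaperonin gene hsp-60 had a summit farther upstream, at -606 bp (III, peak 1619080 to 1619214), shared with Y22D7AL.10 at -207 bp. Its signal was 226 (rank 177), 108 (rank 258) in replicate 1 and 118 (rank 120) in replicate 2. The mitochondrial partners hsp-60 and hsp-6, both known as targets of the mitochondrial stress response, were thus both bound by the window rule. In each list hsp-60 ranked above hsp-6. Both summits lay closer to the start of the divergent neighbour, Y22D7AL.10 or C37H5.5.

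In the reproducible set, the strongest peak at any chaperone gene was at hsp-90, and the promoter rule left it out. HSP-90 (formerly DAF-21) is the cytosolic Hsp90. The annotation gives hsp-90 2 transcript starts that are 1242 bp apart, and the rule uses the upstream one. No summit of any list fell in that window. A reproducible peak at V:14685661-14685887 had its summit 865 bp downstream of this start, in the first intron, and at -377 bp from the second start. Its signal was 419 (rank 29), 246 (rank 26) in replicate 1 and 171 (rank 42) in replicate 2. It stood above hsp-1 in the reproducible set and in replicate 1, and below hsp-1 (rank 36) in replicate 2. The same peak lay at -298 bp from C47E8.4, on the opposite strand, so it sat between these starts. With any annotated transcript start in place of the gene start, 19 of 59 chaperone genes were bound (9.21% of all genes), and hsp-90 was the gene gained. The other Hsp90 gene, hsp-75, encodes the mitochondrial TRAP1 homologue. It had no promoter summit in any list, and its nearest reproducible summit was 18594 bp away.

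**Figure D3:**
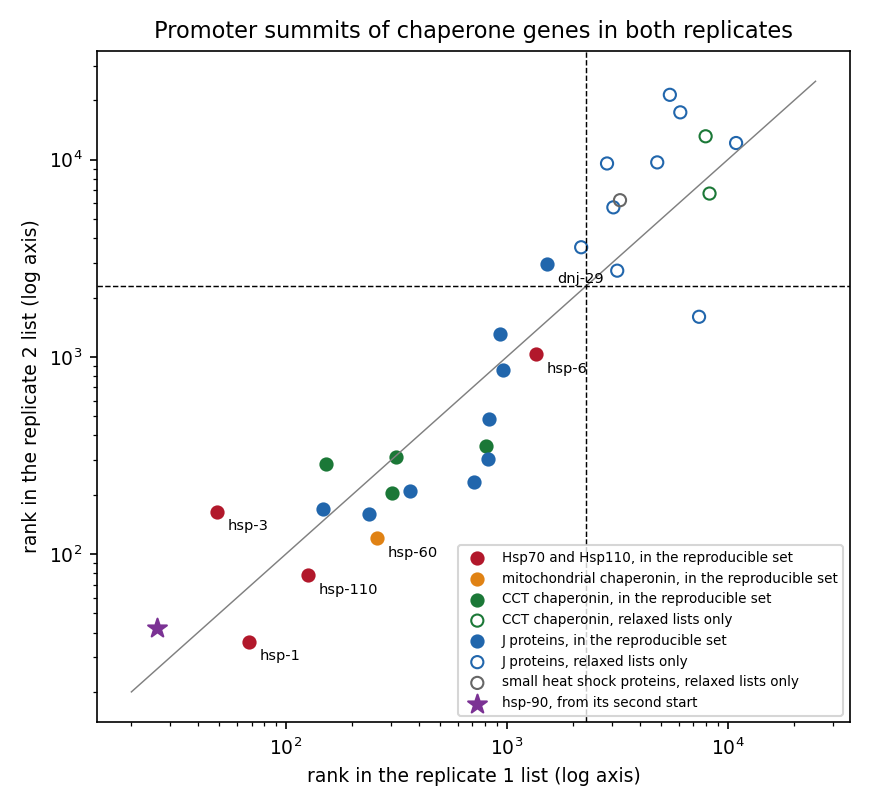
Ranks of the strongest promoter summit in the lists of replicate 1 and replicate 2 (both log axes) for the 30 chaperone genes with one in both, and for hsp-90 from its second start (star). Filled points are in the reproducible set, open points are in relaxed lists only, the solid line marks equal ranks and the dashed lines mark rank 2285. Filled points, from a set selected for replicate agreement, lie near the line. Of these, dnj-29 (rank 2965 in replicate 2) alone lies beyond a dashed line.

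Of the CCT genes, which encode the subunits of a single ring complex, 4 had a reproducible promoter summit and 4 did not. The strongest was cct-8, with a summit at -401 bp and a signal of 213 (rank 200), 134 (rank 152) in replicate 1 and 81.6 (rank 288) in replicate 2. It was followed by cct-1 at -224 bp, with 203 (rank 223), 104 (rank 302) in replicate 1 and 94.2 (rank 204) in replicate 2. For cct-7, at -282 bp, the signal was 182 (rank 294), 102 (rank 314) in replicate 1 and 79.5 (rank 312) in replicate 2. For cct-6, at -274 bp, it was 140 (rank 535), 64.5 (rank 804) in replicate 1 and 74.7 (rank 355) in replicate 2. These 4 genes were in the strongest peaks of both replicates, and each shared its summit with a divergent gene that started closer to it: Y55F3AR.2 (-220 bp), mig-5 (-196 bp), T10B5.4 (-157 bp) and alh-9 (-57 bp). The other 4 ranked far lower or were absent. In the pooled list, cct-5 had rank 5239, cct-2 rank 6364 and cct-4 rank 9246, and cct-3 had no promoter summit in any list. The gene cct-5 held 3 reproducible summits in its introns, the strongest with a signal rank of 1002 at 3654 bp from its start.

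J proteins had the most bound genes of any class, 9, and the widest spread of ranks among them, 154 to 1713. The 4 bound Hsp70 and Hsp110 genes spanned 47 to 1016. J proteins act in different compartments, and the part of this or of class size in the spread was not tested. The strongest was dnj-14, the cysteine string protein of synaptic vesicles, with a summit at -299 bp and a signal of 238 (rank 154), 135 (rank 147) in replicate 1 and 101 (rank 170) in replicate 2. It was shared with glit-1 at -232 bp. DNJ-13, of the DNAJB1 type that works with cytosolic Hsp70, followed with a summit at -224 bp and a signal of 217 (rank 195), 112 (rank 237) in replicate 1 and 105 (rank 159) in replicate 2. It was shared with F54D5.9 at -649 bp. Both stood high in each replicate.

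The gene dnj-9 had a summit at -256 bp that no other promoter window held, with a signal of 192 (rank 261), 94.8 (rank 365) in replicate 1 and 93.6 (rank 210) in replicate 2. At dnj-19, of the DNAJA type, the signal was 159 (rank 403), 68.4 (rank 713) in replicate 1 and 88.5 (rank 231) in replicate 2. That summit lay at -371 bp, but at only -25 bp from the nuclear hormone receptor gene nhr-47. The peak of dnj-11, the homologue of the ribosome-associated zuotin, had a signal of 142 (rank 517), 63.8 (rank 820) in replicate 1 and 79.9 (rank 303) in replicate 2, and it was nearly midway to F38A5.2 (-231 and -240 bp). These 3 genes ranked higher in replicate 2.

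Lower in the list, dnj-22 had a signal of 129 (rank 628), dnj-12, of the DNAJA type, 103 (rank 942) and dnj-5 99.4 (rank 1014). The gene dnj-22 ranked 830 in replicate 1 and 484 in replicate 2, dnj-12 ranked 961 and 860, and dnj-5 ranked 930 and 1301. The peak of dnj-22 lay at -180 bp and was shared with natc-1 at -59 bp. That of dnj-12 lay at -85 bp and was shared with mtx-1 at -407 bp. The dnj-5 summit was the farthest upstream, at -729 bp, and was not shared. The weakest bound gene was dnj-29, the Sec63 homologue of the endoplasmic reticulum translocon, with a signal of 72.0 (rank 1713) at -225 bp, shared with ndua-2 and fld-1. Its rank was 1517 in replicate 1 and 2965 in replicate 2, so it was not among the 2285 strongest peaks of replicate 2.

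The remaining 20 J protein genes had no reproducible promoter summit. Of these, 12 had a summit in some relaxed list and 8 in none. The highest in the pooled list were dnj-23 (rank 2696, signal 52.1), dnj-28 (rank 2942, signal 49.0), dnj-27, the ERdj5 homologue (rank 3058, signal 47.7), and dnj-7 (rank 3268, signal 45.6). The replicates were uneven for some. For dnj-23 the rank was 2173 in replicate 1 and 3599 in replicate 2, and for dnj-27 it was 7424 in replicate 1 and 1598 in replicate 2. Each of these 2 genes thus entered the strongest peaks of 1 replicate only.

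None of the 13 hsp-named genes of small heat shock proteins had a reproducible promoter summit. Of these, 10 had no promoter summit in any list, compared with 50.7% of all protein-coding genes. The small heat shock protein gene sip-1, outside the name rule, had a reproducible one and is given below. The 6 hsp-16 genes had none in any list. Their windows overlap within each divergent pair, and 4 of the 6 lie in repeat copies. The 13 genes are thus not independent cases beside the share of all genes. The nearest reproducible summits to hsp-16.2 and hsp-16.41 were 61262 and -61483 bp from their starts, on the same side of this divergent pair. For the copies of hsp-16.1 they were at 5790 and -8085 bp. Of the hsp-12 genes, hsp-12.2 had the highest promoter summit, in the relaxed lists only, with a signal of 49.4 (rank 2902) at -104 bp. It ranked 3257 in replicate 1 and 6235 in replicate 2. A stronger, reproducible peak of signal 80.7 lay outside the window at -1358 bp.

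The gene hsp-12.1 had a summit in the replicate 2 list only (rank 8074), and hsp-12.3 and hsp-12.6 had none in their promoters. A reproducible peak of signal 125 (rank 661) lay 699 bp downstream of the hsp-12.3 start, in a 3' UTR, and in the promoter window of F38E11.9. Of the larger small heat shock proteins, hsp-17 had a replicate 1 summit only (rank 4973), and hsp-25 and hsp-43 had none in any list.

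Part of the hsp-16 locus is a repeat. The 2 copies of the hsp-16.1 and hsp-16.48 pair are inverted repeats of 1325 bp on chromosome V (9087293 to 9088617 and 9089280 to 9090604), and they had 0 mismatches. In the promoter windows of these 4 genes, 0 to 6.5% of the 36-base words occurred once in the genome. In the overlapping windows of hsp-16.2 and hsp-16.41, which had no summit, the share was 98.8% for hsp-16.2 and 98.3% for hsp-16.41. For the other 53 genes it was 81.9 to 100%. Reads that match more than 1 place are often set aside, and the treatment here is not given. Its part in the missing peaks was not tested.

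In the relaxed lists, which include background, 31 chaperone genes had a promoter summit in the pooled list (26.5% of all genes did), 34 in replicate 1 (34.3%) and 33 in replicate 2 (36.9%). As a share this was 52.5, 57.6 and 55.9%. A summit in both replicate lists was present at 30 genes, against 22.1% of all genes.

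Summits of the bound genes lay close upstream, and both replicates placed them alike. All 18 lay upstream of the start, from -65 bp (hsp-3) to -729 bp (dnj-5), with a median of -272 bp, and 16 of them (88.9%) within 500 bp. Over all bound genes the median was -242 bp and 76.4% lay within 500 bp upstream. The summits of replicates 1 and 2 were a median of 15 bp apart and at most 47 bp, compared with a median of 23 bp over 1703 bound genes. The reproducible set was selected for agreement of these replicates, so part of this nearness follows from the selection. By annotation, 14 of the 18 summits were intergenic and 4 (hsp-6, dnj-13, dnj-14 and dnj-19) lay in an exon of a non-coding gene.

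Most bound chaperone genes shared their peak with the promoter window of another gene. Of the 18, 14 (77.8%) had a peak that lay in the promoter windows of several genes, as had 52.8% of all bound genes. The exceptions were hsp-1, hsp-3, dnj-5 and dnj-9. Among chaperone genes, 28 (47.5%) had a divergent protein-coding neighbour within 1000 bp upstream, against 17.5% of all genes. In this arrangement 14 of 28 chaperone genes were bound, against 21.8% of all such genes and 26% of those with a gene-family name. With a neighbour on the same strand within 1000 bp, 1 of 13 was bound (7.69%, against 5.85%), and with no neighbour so close, 3 of 18 (16.7%, against 5.77%). A peak of a shared promoter cannot be ascribed to either gene. The 28 genes include the 6 hsp-16 genes, which lie in pairs with 220 to 348 bp between their starts and had no summit. Of these 6, 4 lie in the repeat copies described above. The part of gene arrangement in the higher share of bound chaperone genes was not tested.

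**Figure D4:**
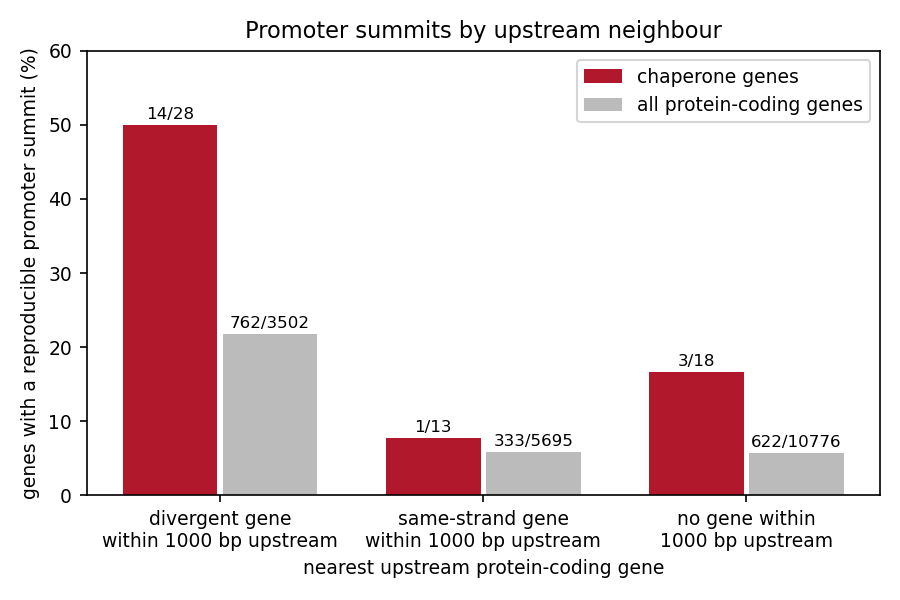
Share of genes with a reproducible promoter summit, in percent, by the nearest upstream protein-coding gene, for chaperone genes and all protein-coding genes. Numbers above the bars are bound genes over all genes of that arrangement. With a divergent gene within 1000 bp, 14 of 28 chaperone genes were bound, against 762 of 3502 genes in all.

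The 8 genes bound when only the nearest start was counted were hsp-1, hsp-3 and 6 J protein genes (dnj-5, dnj-9, dnj-11, dnj-12, dnj-13 and dnj-29). The peaks of hsp-110, hsp-6, hsp-60, the 4 bound CCT genes, dnj-14, dnj-19 and dnj-22 then went to their neighbours. A narrower window, 500 bp upstream to 100 bp downstream, left 16 genes (6.87% of all genes), without hsp-60 and dnj-5, and a wider one, 2000 bp upstream to 500 bp downstream, gave 19 (11.4%), with hsp-12.2 added. Any overlap of the peak with the window gave 18 (9.27%).

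Heat shock elements were found at some bound and some unbound chaperone genes. The element was searched on both strands as 3 alternating blocks of GAA and TTC, each 2 bases of any kind apart, starting with either block. It occurred in the promoter windows (1251 bases) of 15 of 59 chaperone genes (25.4%), against 7.94% of all genes. All 6 hsp-16 genes had it, as had hsp-70, and none of them had a reproducible summit. Both genes of an hsp-16 pair held the same matches, so the 15 genes are not independent cases. It was found at 6 of the 18 bound genes (hsp-1, hsp-6, hsp-60, hsp-110, dnj-12 and dnj-13) and at 9 of the 41 unbound ones. No CCT gene had a match. A match is a stretch of letters and says nothing of whether HSF-1 binds there.

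Of the 6 bound genes with a match, 3 had one within 100 bp of the summit and 3 did not. The distance from the summit to the nearest match was 39 bp at hsp-110, 46 bp at dnj-12, 85 bp at hsp-60, 122 bp at hsp-6, 179 bp at dnj-13 and 269 bp at hsp-1. At hsp-90 the matches were centred at -79 and -9 bp from the upstream start, whereas the peak lay 865 bp downstream of it, and the window of the second start held 0 matches. Within 100 bp of the summit, 3 of the 18 summits held a heat shock element, against 1.14% of all 2285 reproducible summits.

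**Figure D5:**
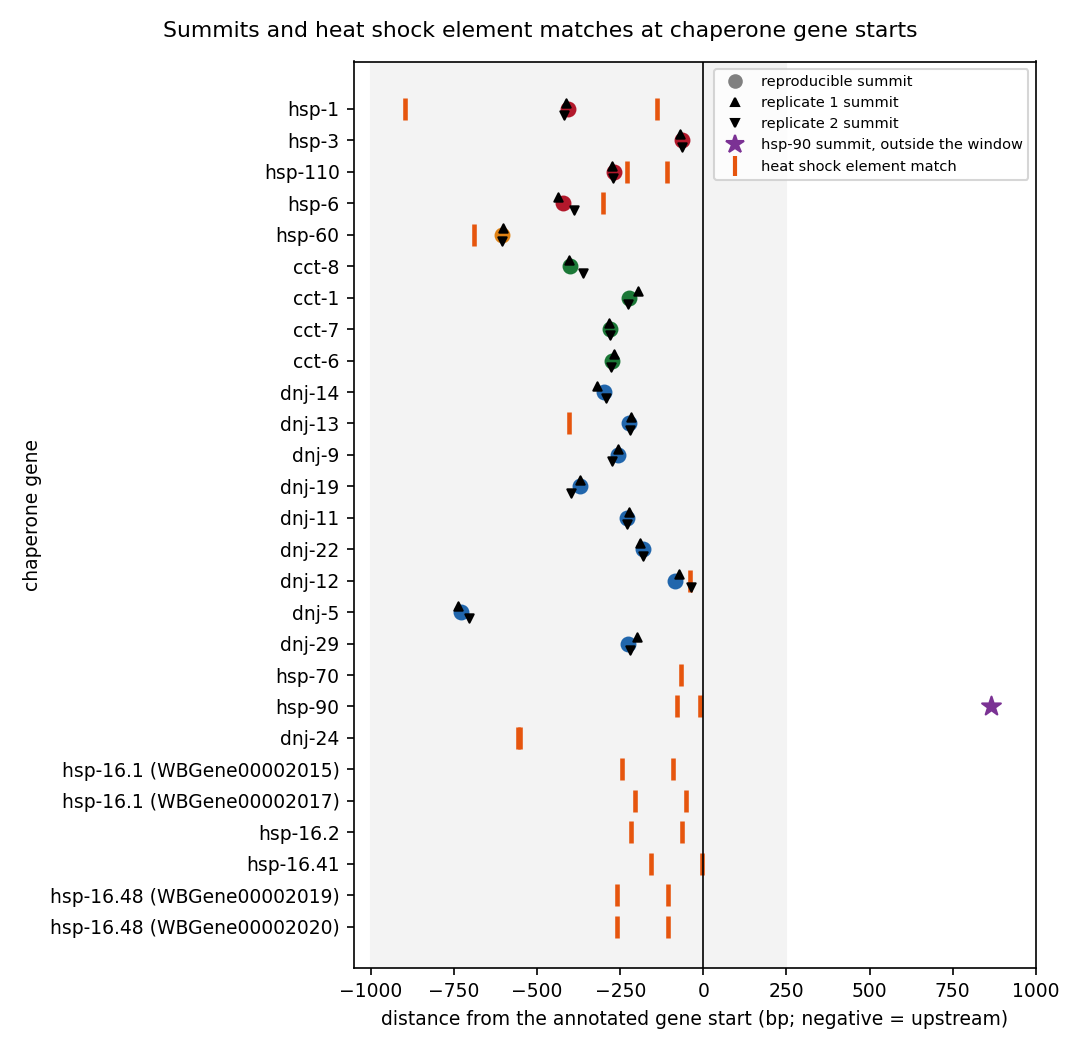
Distance in bp from the annotated gene start of the reproducible summit (large points, coloured by class as in the plot of ranks), of the replicate 1 and replicate 2 summits (small triangles) and of heat shock element matches (orange ticks), for the 18 bound genes and for unbound genes with a match. The grey band is the promoter window of 1000 bp upstream to 250 bp downstream, and the star is the hsp-90 summit outside it. The hsp-16 genes have matches close upstream and no summit.

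A pair of other motifs was searched in the same way. The nuclear receptor half-site AGGTCA (or TGACCT) was present in 8 of 59 chaperone promoters (13.6%), against 27.6% of all promoters. It lay wholly inside 0 of 18 windows of 100 bp around the summit, against 5.56% of all reproducible summits. At dnj-14 a match centred 99 bp from the summit ran past the window edge and was not counted. The endoplasmic reticulum stress element TGACGTG (or CACGTCA) was present in 11 of 59 promoters (18.6%, against 9.74%). It occurred at hsp-3, centred at -129 bp and 64 bp from the summit, and at the unbound hsp-4, centred at -80 bp. Within 100 bp of the summit it was present at 1 of 18 genes (5.56%), against 2.98% of all reproducible summits. The median GC content within 100 bp of the summit was 41.8% for the 18 genes (31.3 to 62.7%), against 43.8% over all reproducible summits.

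Other genes of protein folding and its stress responses were bound too. The list holds 38 genes, which were all found in the annotation, and 21 of them (55.3%) had a reproducible promoter summit, against 8.60% of all protein-coding genes. It was drawn up with earlier results of these data known. The strongest peaks of replicate 1 covered 21 of them and those of replicate 2 covered 17. Several of these genes shared their peak with another promoter window, and no count by nearest start is given for this list.

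In the group of co-chaperones and partners, 9 of 16 genes were bound. The group also holds enpl-1, itself an Hsp90, the small heat shock protein gene sip-1 and the regulator gene hsf-1. The Hsp70 exchange factor gene bag-1 had a signal of 305 (rank 77), 166 (rank 89) in replicate 1 and 136 (rank 73) in replicate 2. The gene sti-1, whose product (Hop) links Hsp70 to Hsp90, had 294 (rank 92), 154 (rank 105) in replicate 1 and 139 (rank 68) in replicate 2. Both summits lay close to the start, at -175 and -75 bp, and in no other promoter. The others were enpl-1, the endoplasmic reticulum Hsp90 (signal 236), unc-23 (179), the Hsp90 activator ahsa-1 (152), fkb-6 (137), the phosphatase pph-5 (92.0), the small heat shock protein sip-1 (86.4) and the myosin chaperone unc-45 (62.4). The gene sip-1 thus had a peak where the hsp-12 and hsp-16 genes had none in this set, and it was shared with sly-1. Also shared were the peaks of enpl-1 (with imp-2), ahsa-1 (C01G10.7), fkb-6 (F31D4.2) and pph-5 (Y39B6A.3), but not those of unc-23 and unc-45. HSF-1 is the main regulator of the heat shock response, and its gene hsf-1 had only relaxed summits in the pooled list (rank 4625) and in replicate 1 (rank 3267).

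Prefoldin, which passes clients to CCT, had 3 of 6 genes bound, namely pfd-1 (signal 218, rank 188), pfd-6 (107, rank 888) and pfd-3 (63.4, rank 2065). In replicate 2, pfd-3 ranked only 11641. The peaks of pfd-1 (with F01G4.6) and pfd-6 (with rde-2) were shared. Of the genes for folding and stress signalling in the endoplasmic reticulum, 8 of 11 were bound. They were the disulphide isomerases pdi-3 (286, rank 96), pdi-6 (171), pdi-2 (107) and pdi-1 (66.1), the calcium-binding chaperone crt-1 (218, rank 189) and the stress regulators xbp-1 (165), atf-6 (125) and pek-1 (80.2). Of these peaks, those of pdi-3 (with ubql-1) and pdi-1 (with C14B1.2) were shared. The gene ire-1 was not in the reproducible set (pooled rank 2888). Of the mitochondrial stress genes 1 of 5 was bound, the regulator atfs-1, with a signal of 110 (rank 850), 66.8 (rank 746) in replicate 1 and 48.1 (rank 900) in replicate 2.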

How the data were processed

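ChIP-seq peak lists of 2 replicates were used. Per the deposited notes, peaks were called against a control, and the optimal set was taken from the relaxed lists by irreproducible discovery rate. The authors deposited a signal per peak and the offset of the summit from the peak start in bp. The aligner, the caller and the depth are not stated in any label or file read here. Lists on ce10 were not used.

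Genes and starts came from Ensembl (WBcel235, release 115), the build of the ce11 lists, and sequences from RefSeq WBcel235. Scripts in Python 3.11.15 with pandas 2.3.3, numpy 2.4.6, scipy 1.17.1 (Clopper-Pearson intervals) and matplotlib 3.10.9 assigned summits to promoter windows. The assignment was tested on simulated data. No p-value was computed. Other windows, assignments, thresholds, starts and single replicates were tried. The members and lists were chosen with earlier results of these data known. Named genes are all bound members, the 5 highest-ranked other members, all hsp-16, hsp-12, Hsp70, Hsp90, hsp-60 and cct genes, bound proteostasis genes with hsf-1, and genes that share a summit. The text also names other genes after their values were seen, namely dnj-20, hsp-17, hsp-25, hsp-43 and ire-1.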

Additional observations from a re-analysis of the deposited data

How the results depend on the processing

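Giving each summit only to the nearest start left 8 of 18 bound genes, with 2 of 4 Hsp70 and Hsp110 genes, 6 of 9 J protein genes, 0 of 4 CCT genes and 0 of 1 for hsp-60, because the neighbouring starts were closer. The narrow window also gave 0 for hsp-60, the wide window gave 1 small heat shock protein gene (hsp-12.2) in place of 0, and any transcript start gave 1 Hsp90 gene (hsp-90) in place of 0. With a single replicate, the count of bound genes was 18 to 19, that of J proteins 9 to 10 and that of genes in the relaxed lists 33 to 34. The median rank was 260 without replicate 1 and 340 without replicate 2, against 278. Wholly within 100 bp of the summit, 16.7% of bound genes held a heat shock element, 5.56% an endoplasmic reticulum stress element and 0% a nuclear receptor half-site. In the promoters of all 59 genes these shares were 25.4, 18.6 and 13.6%, over longer windows, and over all reproducible summits they were 1.14, 2.98 and 5.56%. No paired analysis was possible because there is 1 group and no test. Read depth is unknown, so a missing summit does not show that binding is absent.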

Other observations

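The letters CCAAT or ATTGG and GCGCGC were counted after the sequences under the summits had been seen. Within 100 bp of the summit, CCAAT was present at 8 of 18 bound chaperone genes (44.4%), among them hsp-3, hsp-6 and hsp-60, against 29.2% of all reproducible summits. In the promoter windows it was present at 57 of 59 chaperone genes (96.6%), against 93.3% of all genes. GCGCGC was present within 100 bp of the summit at 3 of 18 bound genes (16.7%), namely hsp-1, hsp-3 and hsp-60, against 11.3% of all reproducible summits. Outside the promoter window, a reproducible peak lay in an intron of dnj-20, the ERdj3 homologue, 2924 bp from its start, with a signal of 79.2 (rank 1471).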
